A study of Mus musculus with 32 samples.

Results

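The genes described here make and load the molecules of the major histocompatibility complex (MHC) in transplanted mouse T cells. They were chosen by symbol: every gene of the table whose symbol starts with H2-, except a pseudogene with the ending -ps, together with B2m, Tap1, Tap2, Tapbp, Tapbpl, Nlrc5, Ciita, Cd74, Erap1, Calr, Canx and Pdia3. This gave 37 of 16741 genes, of which 25 carry the H2- prefix. By role, 26 belong to class I (2 classical heavy chains, 14 nonclassical heavy chains, 9 assembly genes and the transactivator Nlrc5), 10 belong to class II (9 genes and the transactivator Ciita), and 1, H2-Ke6, lies in the region but encodes a metabolic enzyme. RefSeq lists 33 of the 37 as protein coding and H2-Bl, H2-K2, H2-Q5 and H2-T10 as transcribed pseudogenes, and 28 lie on chromosome 17.

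In the study, T cells of C57Bl6 donors were profiled by bulk RNA sequencing around a transplant into MHC-mismatched Balb/c mice, a model of graft-versus-host disease (GVHD), in which donor T cells attack the recipient. The 31 libraries were made from cells sorted out of spleen and lymph nodes and form 10 groups. CD4 and CD8 conventional T cells each have 4 groups: 2 pretransplant libraries (day 0), 3 of syngeneic transplants, 4 of allogeneic transplants, and 4 of allogeneic transplants with regulatory T cells (Treg) given on day 0, called Treg-treated below. Treg have 2 libraries from day 0 and 3 recovered from Treg-treated recipients. The sample titles place the later libraries at day 6 and the series text at day 8. The labels name neither the strain of the syngeneic recipients nor the conditioning of any recipient, and they give no allele or transgene. Nothing in them says that the libraries of a group came from separate mice, so p-values measure only the spread between these libraries. Each library name carries a prefix, JL019 or JL027, whose meaning is not stated.

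Class I molecules are heavy chains paired with B2m that show peptides from inside a cell to CD8 T cells. The peptides are moved into the endoplasmic reticulum by Tap1 and Tap2, trimmed by Erap1, and loaded with the help of Tapbp, Calr and Pdia3, while Nlrc5 drives transcription of class I genes. Class II molecules show peptides from taken-up material to CD4 T cells and belong mainly to B cells, dendritic cells and macrophages. Cd74 is their chaperone, H2-DM loads the peptide, H2-O holds H2-DM back, and Ciita drives their transcription.

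Letters of short control elements were marked in the start regions of H2-Q10 and H2-Ob, each beside a relative of its class. From day 0 to allogeneic recipients, H2-Q10 rose most and H2-Ob fell most in both CD4 and CD8 cells. The sequences are the 200 bases before each gene start in RefSeq, build GRCm38.p6, written 5′ to 3′ on the gene's own strand. Capitals mark a Y box (CCAAT, or ATTGG on the other strand), the letters GAANNGAAA on either strand, a form of the interferon-stimulated response element (ISRE), and an X2 box (TGANGCA on either strand). The first pair is class I, H2-D1 at chr17:35262894-35263093 and H2-Q10 at chr17:35469889-35470088, both on the plus strand.
H2-D1: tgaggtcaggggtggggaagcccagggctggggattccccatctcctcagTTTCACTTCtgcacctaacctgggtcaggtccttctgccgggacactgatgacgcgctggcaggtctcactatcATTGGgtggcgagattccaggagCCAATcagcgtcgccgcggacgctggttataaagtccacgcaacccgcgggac
H2-Q10: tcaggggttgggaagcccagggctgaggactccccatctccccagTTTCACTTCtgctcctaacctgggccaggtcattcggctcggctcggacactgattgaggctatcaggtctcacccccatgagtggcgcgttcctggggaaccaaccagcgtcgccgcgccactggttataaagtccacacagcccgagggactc
The second pair is class II, H2-Aa at chr17:34287824-34288023 on the minus strand and H2-Ob at chr17:34238705-34238904 on the plus strand.
H2-Aa: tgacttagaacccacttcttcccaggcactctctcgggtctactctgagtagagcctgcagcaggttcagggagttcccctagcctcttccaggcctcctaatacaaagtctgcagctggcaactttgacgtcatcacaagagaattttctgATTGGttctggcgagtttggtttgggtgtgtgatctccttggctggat
H2-Ob: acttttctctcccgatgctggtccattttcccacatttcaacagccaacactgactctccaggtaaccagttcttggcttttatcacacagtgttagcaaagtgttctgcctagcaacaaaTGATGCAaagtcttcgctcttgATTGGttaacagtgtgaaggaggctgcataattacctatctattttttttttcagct

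The promoters of H2-D1 and H2-Q10 were identical at 254 of 291 aligned bases (87.3%), and both held this ISRE form, but the 2 Y boxes of H2-D1 were not in the H2-Q10 window. A RefSeq promoter was matched for 25 of the 37 genes. The alignment and the counts use its whole window of 300 bases, of which the stretches above are a part. The window runs from 250 before to 50 after the start of the first promoter listed for the gene. In H2-K1, H2-Q7, H2-DMa, H2-DMb2 and Erap1 that start lies inside the gene. The H2-DMa window, for example, is chr17:34122582-34122881, and the gene begins at 34119693. A Y box was found in 22 of these 25 (88.0%), against 37.92% of 27025 promoters of the same 300-base window. GAANNGAAA was found in 7 of 10 class I heavy chains (70.0%), in 0 of 7 assembly genes and in 0 of 7 class II genes, against 7.56% of all promoters. The ISRE core, GAAA followed by any 2 bases and GAAA again, on either strand, was in 4 of the 25 (16.0%), namely B2m, Erap1, H2-T22 and H2-T23, against 3.49%. The X2 box letters were in 5 of the 25 (20.0%), 3 of them class II genes (H2-DMb2, H2-Eb1 and H2-Ob), against 14.33%. The gamma-activated site (TTCNNNGAA) was in 2 of the 25 (8.0%), against 8.47%. A match describes letters in a window and is not a measured binding site.

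Values are normalised counts, which are counts scaled between libraries, so the depth of each library is unknown and levels are not compared between genes. A log2 change is a difference of mean log2(value + 1), tested with limma over all 16741 genes. A gene is called higher or lower where its Benjamini-Hochberg adjusted p is below 0.05. Class I heavy chains form a family of related copies, as do H2-DMb1 and H2-DMb2, and their estimates are uncertain because reads can be split between copies. Transcript identity was not measured here. In bulk RNA, fewer cells of a type and less RNA per cell cannot be told apart.

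The cell labels were checked against marker genes. Cd4 held 1659 to 21481 normalised counts in the CD4 libraries and at most 92.8 in the CD8 libraries, and Cd8a followed the CD8 label apart from 1 CD4 library. Foxp3, the lineage factor of Treg, went against the Treg label at day 0, with 197.7 and 442.4 in the Treg libraries against 1145 and 977.9 in the CD4 libraries. Other Treg genes, checked after that was seen, followed the label, as Ikzf2 held 19287 and 14182 in Treg against 1619 and 1770 in CD4 cells, and Il2ra 11229 and 13064 against 1981 and 1923. The CD4 syngeneic library JL019-2 stood apart from its group. Its summed neutrophil markers were 4230058 against 101656 and 94785 in the other 2, its macrophage and monocyte markers 860129 against 25014 and 18536, its Cd3e 5737 against 21298 and 18990, and its Cd8a 1956 against 58.17 and 114.1. All results were therefore also computed without it, and its values enter the shared estimate of spread even where its group is not compared. Where a result is given without JL019-2, this CD4 syngeneic library is meant.

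H2-Q10 encodes a class I molecule best known as a protein secreted by the liver. It was the member that rose most with transplantation into allogeneic recipients. In CD4 cells it held 445.5 and 384.8 normalised counts at day 0, 691.1, 822.4 and 528.2 in syngeneic recipients, and 4824, 4083, 4343 and 4697 in allogeneic recipients. The 3 groups did not overlap, and the allogeneic level was 4487 ± 338 (SD, n = 4). Against syngeneic the log2 change was 2.74 (SE 0.25, limma adjusted p = 7.8e-09), and against day 0 it was 3.43 (SE 0.28, adjusted p = 2.8e-10). In CD8 cells H2-Q10 held 455.4 and 468.2 at day 0, 2211, 1808 and 1633 in syngeneic recipients, and 4632, 4655, 3783 and 4787 in allogeneic recipients. Here the syngeneic libraries already lay above day 0, by 2.01 on the log2 scale (SE 0.30, adjusted p = 2.7e-05), and the allogeneic libraries lay above both. The step from syngeneic to allogeneic was 1.25 in CD8 cells (SE 0.25, adjusted p = 0.00045), smaller than in CD4 cells by 1.49 (SE 0.35, adjusted p = 0.0105 for the difference). Within the prefixes JL019 and JL027 the step was 2.56 and 3.09 in CD4 cells and 1.22 and 1.38 in CD8 cells. JL027 has 1 syngeneic library of each cell type, so its values rest on the spread of the other groups.

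Treg-treated recipients gave 4067, 4570, 2094 and 2352 normalised counts of H2-Q10 in CD4 cells and 3406, 4142, 3008 and 3592 in CD8 cells. Both groups overlapped their allogeneic counterpart, with log2 changes of -0.53 (adjusted p = 0.0911) and -0.34 (adjusted p = 0.56). The CD4 change was called under quantile normalisation (-0.59, adjusted p = 0.0485) and with the trend on gene span, described below, removed (-0.72, adjusted p = 0.0212). Treg recovered from the same kind of recipient held only 905.3, 749.9 and 651.7, close to the 329.6 and 716.9 of day 0 Treg (log2 change 0.65, adjusted p = 0.17). They lay below the CD4 cells of Treg-treated recipients by 2.02 on the log2 scale (SE 0.25, adjusted p = 1.6e-06), and no library overlapped.

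The classical class I heavy chains H2-K1 and H2-D1 present peptides to CD8 T cells on nearly every cell. H2-K1 (chr17:33996012-34000619, GRCm38.p6) differed between allogeneic and syngeneic recipients in CD8 cells. It held 114090, 101393 and 149352 normalised counts in syngeneic and 71324, 64508, 46040 and 61348 in allogeneic recipients. All allogeneic libraries were below all syngeneic ones, and the log2 change was -0.999 (SE 0.21, adjusted p = 0.0008). In CD4 cells the same comparison gave 94829, 57033 and 72979 in syngeneic and 104141, 87685, 75907 and 89753 in allogeneic recipients, with overlap and a log2 change of 0.28 (adjusted p = 0.45). The difference between the 2 cell types was itself called, at -1.275 (SE 0.30, adjusted p = 0.0094). Markers of other cells moved with both comparisons. In CD8 cells the 6 neutrophil markers summed to 44171 to 76415 in syngeneic and 6273 to 11379 in allogeneic recipients, and the 12 macrophage and monocyte markers to 11352 to 15522 and 3004 to 3542. Most of the latter sum was Lyz2 (10276 to 13870 in syngeneic and 690 to 1257 in allogeneic recipients). Of the 12, 5 were lower in all allogeneic libraries, 2 were higher (Itgam and Cd68) and 5 overlapped. In CD4 cells the neutrophil sums were 94785 to 4230058 and 6162 to 13225, and the macrophage and monocyte sums 18536 to 860129 and 2142 to 3153. Their part in the differences between allogeneic and syngeneic recipients, here and below, was not tested. The trend on gene span, given below, differed between the CD8 groups as well. Day 0 levels of H2-K1 were 99205 and 91183 in CD4 cells, 69805 and 88649 in CD8 cells, and 84829 and 101904 in Treg.

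H2-K1 held 154149, 155984, 84578 and 136286 normalised counts in CD4 cells of Treg-treated recipients and rose against allogeneic by 0.54 (SE 0.19, adjusted p = 0.0457). Its JL027-1 library lay within the allogeneic range. The call was lost without 7 of the 8 libraries in turn and under quantile normalisation, where the change was 0.03. In CD8 cells of Treg-treated recipients it held 65664, 66459, 53657 and 66574, below the CD4 cells by 1.04 (SE 0.19, adjusted p = 0.00057) with no overlap. In recovered Treg it held 175486, 152419 and 151512, above day 0 Treg by 0.78 (SE 0.25, adjusted p = 0.0368), a call lost without any 1 of the 5 libraries.

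H2-D1 (chr17:35263094-35267497) was called in no comparison with all libraries and no block. With the recipient as a random block its allogeneic effect was lower in CD8 than in CD4 cells (-0.97, adjusted p = 0.0433). That block takes same-numbered libraries of a treatment to share a recipient, which the labels do not state. It held 136939 and 117761 normalised counts in day 0 CD4 cells, 140270, 97429 and 90653 in syngeneic, 200239, 148612, 132312 and 171605 in allogeneic, and 208323, 214307, 109198 and 164363 in Treg-treated recipients. CD8 cells held 84524 and 114613 at day 0, 162193, 131990 and 181311 in syngeneic, 140507, 138432, 80108 and 135693 in allogeneic, and 122414, 111182, 103929 and 117923 in Treg-treated recipients. Treg held 110245 and 118147 at day 0 and 178315, 146001 and 171757 after recovery, which did not overlap (log2 change 0.53, adjusted p = 0.23).

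**Figure D1:**
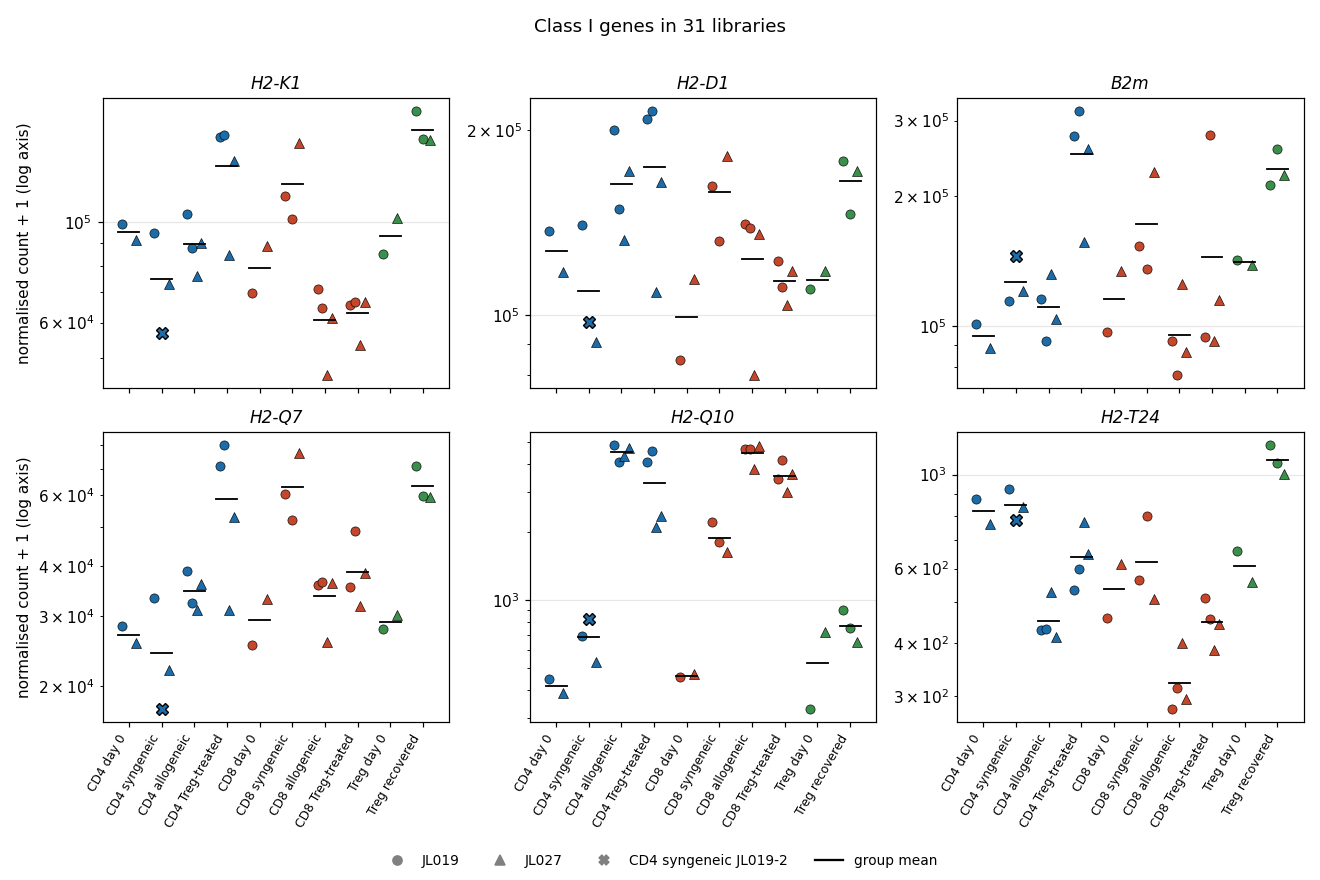
Normalised counts (plus 1, log axis) of 6 class I genes in the 31 libraries by group. Each point is a library, circles are JL019, triangles are JL027, X is the CD4 syngeneic library JL019-2, and bars are group means. H2-Q10 sits at 3783 to 4824 in both allogeneic groups and at 384.8 to 468.2 in day 0 CD4 and CD8 cells.

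Among the other nonclassical heavy chains, H2-T24 moved in the opposite direction to H2-Q10. In CD4 cells it held 876.4 and 762.9 normalised counts at day 0, 922.7, 778.6 and 836.2 in syngeneic, and 427.9, 431.5, 526.6 and 412.6 in allogeneic recipients. It fell by 0.91 on the log2 scale against syngeneic (SE 0.19, adjusted p = 0.00099), with no overlap. The CD8 values were 564, 796.6 and 506.6 in syngeneic and 279.7, 313.6, 400.1 and 294.2 in allogeneic recipients, lower by 0.94 (SE 0.19, adjusted p = 0.0005) and again without overlap. Neither call was lost on leaving out any 1 library. H2-T24 was higher in CD4 cells of Treg-treated than of allogeneic recipients, at 532.7, 597.4, 770.9 and 648.2, a log2 change of 0.50 (SE 0.17, adjusted p = 0.041), which was lost without 7 of the 8 libraries in turn. In recovered Treg it held 1171, 1062 and 1003 against 658 and 556.3 at day 0, a rise of 0.83 (SE 0.22, adjusted p = 0.0118), lost without day 0 JL027 (adjusted p = 0.15).

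H2-Q6, a Qa-2 gene, held 9498, 3807 and 6248 normalised counts in CD4 cells of syngeneic recipients and 21844, 15593, 12249 and 15544 in allogeneic recipients. It rose by 1.39 (SE 0.26, adjusted p = 0.00047), and by 1.05 without JL019-2 (adjusted p = 0.0085). Among CD8 libraries it held 17818, 17963 and 16254 against 16083, 13408, 7630 and 13621 and was not called. The difference of the effects was -1.89 (SE 0.37, adjusted p = 0.0024). H2-Q7, whose promoter was identical to that of H2-Q6 at 97.7% of 260 aligned bases, fell in CD8 cells, from 60470, 52048 and 76773 to 35752, 36500, 25872 and 36224, by 0.91 (SE 0.25, adjusted p = 0.0092), a call lost without syngeneic JL027 (adjusted p = 0.0734). H2-T22 rose in CD4 cells by 0.88 (SE 0.20, adjusted p = 0.0024), and by 0.53 without JL019-2 (adjusted p = 0.0458).

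H2-T23 encodes Qa-1, which binds receptors of natural killer cells. It fell by 0.66 in CD8 cells of allogeneic against syngeneic recipients (SE 0.21, adjusted p = 0.0254) and rose by 0.70 in CD4 cells of Treg-treated against allogeneic recipients (SE 0.20, adjusted p = 0.0175). These calls were lost without 3 of 7 and 4 of 8 libraries in turn, with adjusted p up to 0.17 and 0.0757. H2-Q2 was lower in CD8 than in CD4 cells. It held 6.764 and 5.764 normalised counts in day 0 CD8 cells against 44 and 65.14 in CD4 cells (log2 change -2.91, SE 0.59, adjusted p = 0.0032, and up to 0.0734 without CD4 JL027), and in Treg-treated recipients it was lower by 1.86 (SE 0.42, adjusted p = 0.0038). H2-Q1 had a mean below 10 and was called nowhere.

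B2m, the light chain of every class I molecule, held 115308, 92298, 131673 and 103551 normalised counts in CD4 cells of allogeneic recipients and 276562, 315064, 156354 and 257144 in Treg-treated recipients. The groups did not overlap, and the rise was 1.15 (SE 0.27, adjusted p = 0.0103). It kept its call without each of the 8 libraries, with adjusted p up to 0.0494, but within a prefix it was not called (1.52, adjusted p = 0.0821, in JL019 and 0.78, adjusted p = 0.68, in JL027), and under quantile normalisation the change was 0.47. In CD8 cells 3 of the 4 Treg-treated libraries (94325, 92391 and 114803) lay within the allogeneic range of 76933 to 125136, and JL019-2 held 277190. CD8 cells of syngeneic recipients held 153569, 135228 and 228345, above all allogeneic libraries (log2 change -0.84 for allogeneic against syngeneic, SE 0.29, adjusted p = 0.0363, lost without 5 of 7 libraries in turn).

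Pdia3, an oxidoreductase of the loading complex, was higher after transplantation than at day 0 in all 5 comparisons of transplanted with day 0 cells. CD8 cells held 11887 and 15046 normalised counts at day 0 and 28426, 36692, 46742 and 38869 in allogeneic recipients, a rise of 1.47 (SE 0.18, adjusted p = 5.9e-07). The rise was 1.26 in CD8 cells of syngeneic recipients, 0.89 in CD4 cells of allogeneic recipients, 0.98 in recovered Treg and 0.58 in CD4 cells of syngeneic recipients. The last was not called without JL019-2 (0.61, adjusted p = 0.0859). Calr, the lectin chaperone of class I, rose in 3 of these comparisons, by 0.85 in CD8 and 0.69 in CD4 cells of allogeneic recipients and by 0.92 in recovered Treg. Under quantile normalisation the 3 Calr changes were 0.43, 0.32 and 0.52 and 0 were called.

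The transporter gene Tap1 held 8731 and 7742 normalised counts in day 0 CD4 cells, 10539, 3290 and 7703 in syngeneic, 17277, 13767, 9744 and 14240 in allogeneic, and 6909, 6662, 10386 and 6993 in Treg-treated recipients. In CD8 cells it held 5182 and 6556 at day 0, 9591, 10360 and 5867 in syngeneic, 12345, 12858, 5347 and 12854 in allogeneic, and 11076, 3390, 9768 and 7953 in Treg-treated recipients. In Treg it held 6069 and 7440 at day 0 and 17234, 12652 and 18958 after recovery. Recovered Treg lay above the CD4 cells of Treg-treated recipients by 1.08 (SE 0.37, adjusted p = 0.0302, lost without 5 of 7 libraries in turn), and above day 0 Treg by 1.26 (adjusted p = 0.0623, and 0.0277 without the CD4 library JL019-2).

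Nlrc5 held 2784 and 2870 normalised counts in day 0 CD4 cells, 2644, 772.7 and 2206 in syngeneic, 2444, 3015, 1896 and 2253 in allogeneic, and 994.2, 1506, 2150 and 1306 in Treg-treated recipients. For CD8 cells the values were 2576 and 3131 at day 0, 1472, 2431 and 1782 in syngeneic, 2685, 2715, 1088 and 2556 in allogeneic, and 1673, 1260, 1957 and 1051 in Treg-treated recipients. In Treg it held 3046 and 5112 at day 0 and 4892, 3369 and 3249 after recovery. With all libraries it was called only between recovered Treg and CD4 cells of Treg-treated recipients, higher in Treg by 1.40 (SE 0.36, adjusted p = 0.0049) with no overlap. Between Treg-treated and allogeneic CD4 cells its change of -0.73 had an adjusted p of 0.11, and of 0.0491 without the CD4 library JL019-2.

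Class I counts can be read against the whole table. In CD4 cells, allogeneic against syngeneic recipients gave 3 class I genes higher and 1 lower of 26, and 14.6% of all genes were called. Over all 37 members it was 3 higher and 4 lower, and 5 higher and 3 lower under median centring or quantile normalisation. The class I median was 0.52 and that of all genes 0.00, but without JL019-2 the class I median was 0.18, with 3 higher and 1 lower against 10.9% of all genes called. In CD8 cells 1 was higher and 6 were lower, with a median of -0.13 and 21.1% of all genes called. The difference of the 2 effects was called for 7 class I genes, all lower in CD8 cells (H2-Q6, H2-K1, H2-Q10, H2-Q7, H2-Q5, Tapbpl and H2-T22), while 4.65% of all genes were called. Without JL019-2 the first 4 of these were called, and the class II gene H2-Oa was also lower (-2.04, adjusted p = 0.0081), against 3.97% of all genes. With the recipient as a random block all 7 were called, with H2-D1 also lower and the class II gene H2-DMb2 higher (2.83, adjusted p = 0.0401). With the trend on gene span, described below, removed, 4 of the 37 members were called for this difference.

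Treg treatment gave 6 class I genes higher and 0 lower in CD4 cells (B2m, H2-T23, H2-Bl, H2-Q7, H2-T24 and H2-K1), with 22.2% of all genes called and a class I median of 0.01. The direction of the calls depended on the processing. Over all 37 members it was 6 higher and 0 lower, but 3 higher and 4 lower under quantile normalisation (lower were H2-Q6, Tap1, H2-Q10 and H2-Eb1), and 4 higher and 2 lower with only the 2 groups in the fit. Without Treg-treated JL027-1 it was 8 higher and 4 lower, and without each other Treg-treated library in turn 1 higher and 0 lower. Without the CD4 syngeneic library JL019-2 in the shared fit, 28.6% of all genes were called and class I had 7 higher (Pdia3 added, at 0.41) and 4 lower. The 4 were Erap1 at -0.97 (adjusted p = 0.0286), Canx at -0.89, Tap1 at -0.83 and Nlrc5 at -0.73. All 4 overlapped the allogeneic group through the JL027-1 library, in which Canx held 19250 against 5558, 5019 and 6996 in the other 3. Within JL019 or JL027 alone, 0 members were called. In CD8 cells limma called 0 of 37 members, 5 had an unadjusted p below 0.05, and 0.0657% of all genes were called. For the difference of the Treg effects between CD8 and CD4 cells, limma called 0 members, with 0 at an unadjusted p below 0.05, against 0.00597% of all genes.

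The CD4 Treg-treated libraries also differed in other measures. The slope of log2 values on the log2 of gene span was -0.10, -0.12 and -0.07 in 3 of them and 0.02 in JL027-1, against 0.02 to 0.05 in allogeneic CD4 libraries. Longer genes therefore held relatively lower values in the same 3 libraries in which B2m and H2-K1 were high and Canx and Erap1 low. The CD8 Treg-treated library JL019-2 had a slope of -0.12 and likewise held high B2m (277190) and low Canx (7415) and Erap1 (3023), but its H2-K1 of 66459 was within the range of its group. With that trend removed, B2m still rose by 0.99 (adjusted p = 0.0101) and H2-T23 by 0.44 (adjusted p = 0.0379), while H2-K1 (0.35, adjusted p = 0.15), H2-Q7 (0.50, adjusted p = 0.0809) and H2-Bl (0.85, adjusted p = 0.0515) were not called. In all, 4 members were then higher (with H2-T24 and Pdia3) and 2 lower (H2-Q10 at -0.72 and H2-Q6 at -0.72, adjusted p = 0.0457). Summed neutrophil markers were 27642 to 103200 in these libraries against 6162 to 13225 in the allogeneic ones, and macrophage and monocyte markers 3578 to 14546 against 2142 to 3153. Of the 12 macrophage and monocyte markers, Lyz2 (2435 to 13044 against 975.4 to 1876) and Cd14 were higher in all Treg-treated libraries, Itgam was lower and 9 overlapped. The part of these cells in the class I results, and in the Cd74 levels of the same libraries given below, was not tested. Slopes also differed between CD8 groups, at -0.058, -0.008 and -0.105 in syngeneic and -0.018 to 0.014 in allogeneic libraries. Within the CD8 syngeneic group, JL027 at -0.105 held the highest B2m (228345), H2-K1 (149352) and H2-Q7 (76773) and the lowest Canx (6178) and Erap1 (4192). With the trend removed, allogeneic against syngeneic CD8 cells had 1 member higher and 8 lower, the same counts as before.

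**Figure D2:**
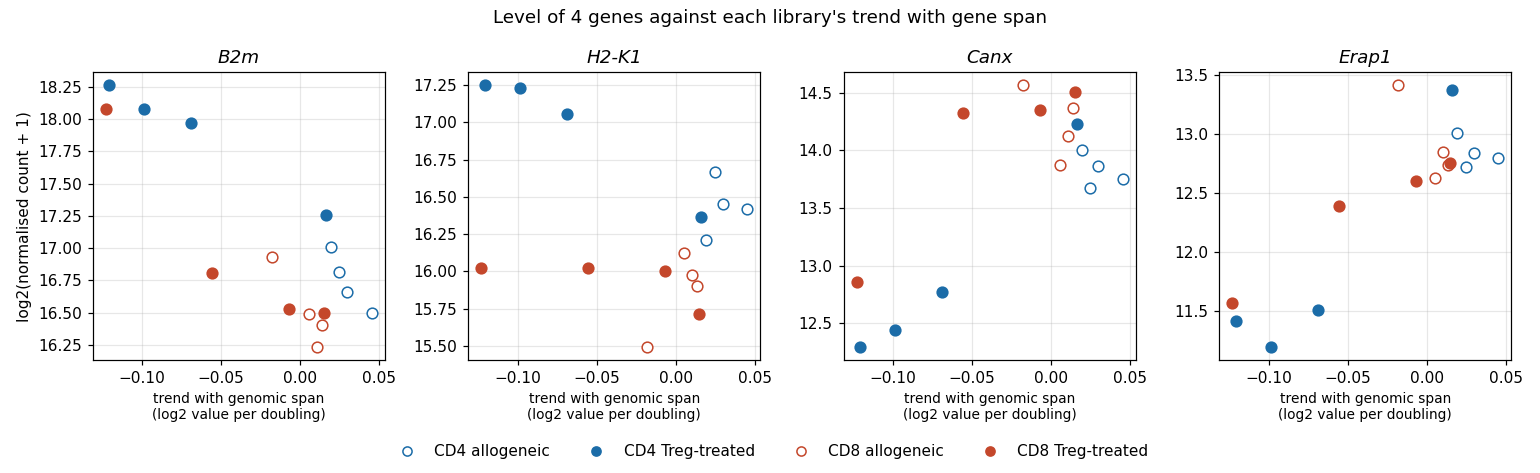
log2(normalised count + 1) of B2m, H2-K1, Canx and Erap1 against each library's slope of log2 value per doubling of genomic span, in the 16 allogeneic and Treg-treated libraries. Open points are allogeneic and filled points Treg-treated, blue CD4 and red CD8. The 3 CD4 Treg-treated libraries with slopes of -0.07 to -0.12 hold the highest H2-K1 and the low Canx and Erap1 levels, and the JL027-1 library at 0.02 lies near the allogeneic points. The CD8 Treg-treated library JL019-2 at -0.12 has high B2m and low Canx and Erap1 but an H2-K1 of 66459.

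H2-Ob, the beta chain of the class II modulator H2-O (chr17:34238905-34245908), was the member that fell most. In CD4 cells it held 1584 and 1648 normalised counts at day 0, 445.9, 314.2 and 355.5 in syngeneic, and 18.23, 13.61, 10.86 and 43.6 in allogeneic recipients. In CD8 cells the values were 1252 and 1871, then 547.2, 494.1 and 687.7, then 11.82, 7.054, 22.39 and 7.295. In both cell types the 3 groups were ordered in the same way without overlap. Allogeneic against day 0, the log2 change was -6.36 in CD4 cells (SE 0.56, adjusted p = 1e-09) and -7.01 in CD8 cells (SE 0.56, adjusted p = 1.9e-10). Allogeneic against syngeneic, it was -4.23 (SE 0.49, adjusted p = 6.1e-07) and -5.59 (SE 0.49, adjusted p = 1.8e-09). These 4 calls held without each single library left out.

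Syngeneic against day 0, H2-Ob fell by 2.13 in CD4 cells (SE 0.59, adjusted p = 0.0154), a call lost without JL019-2 (adjusted p = 0.0534), and in CD8 cells the change of -1.42 was not called (adjusted p = 0.0761). In Treg-treated recipients H2-Ob held 27.96, 58.75, 51.9 and 19.8 in CD4 and 7.789, 43.93, 12.21 and 19.78 in CD8 cells, overlapping the allogeneic libraries in both. Day 0 Treg held 1094 and 1376, and recovered Treg 164.2, 94.82 and 65.65, so that it fell by 3.59 (SE 0.59, adjusted p = 7.7e-05). Recovered Treg stayed above the CD4 cells of the same kind of recipient by 1.45 (SE 0.49, adjusted p = 0.0275), lost without 4 of the 7 libraries in turn. B cells also express H2-O, and their markers moved as well. Of 10 B cell markers in CD4 cells, all allogeneic libraries lay below day 0 for 6 and above it for Cd22, and the B cell gene Cd79a held 145 and 109.5 at day 0 and 9.691 to 25.74 in allogeneic recipients. In CD8 cells 8 of the 10 were lower in this way and Cd22 was higher. In recovered Treg 3 of the 10 were below day 0 (Cd79b, Cd22 and Bank1, the last at 303 and 226.8 against 15.61, 28.4 and 32.52), and the other 7 overlapped, among them Cd79a at 30.76 and 30.65 against 17.52 to 35.86. The B cell sum of Treg was 1652 and 1379 at day 0 and 651.3 to 941.5 after recovery. The part of B cells in the fall of H2-Ob was not tested in any cell type.

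H2-Oa, the alpha chain of the same heterodimer, did not follow H2-Ob. In CD4 cells it held 243.8 and 206.7 normalised counts at day 0 and 841.5, 582.5, 575.4 and 511.8 in allogeneic recipients, a rise of 1.45 (SE 0.43, adjusted p = 0.0128), lost without either day 0 library (adjusted p up to 0.13). Against the syngeneic values of 239.1, 786.8 and 216 the change was 0.84 (adjusted p = 0.15), and 1.44 without JL019-2 (adjusted p = 0.0059). CD8 libraries held 630.5 and 741.5 at day 0 and 594.9, 484.3, 670.5 and 500.4 in allogeneic recipients (log2 change -0.29, adjusted p = 0.63). Recovered Treg held 402.8, 405.8 and 337 against 625.2 and 533.4 (-0.60, adjusted p = 0.46).

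**Figure D3:**
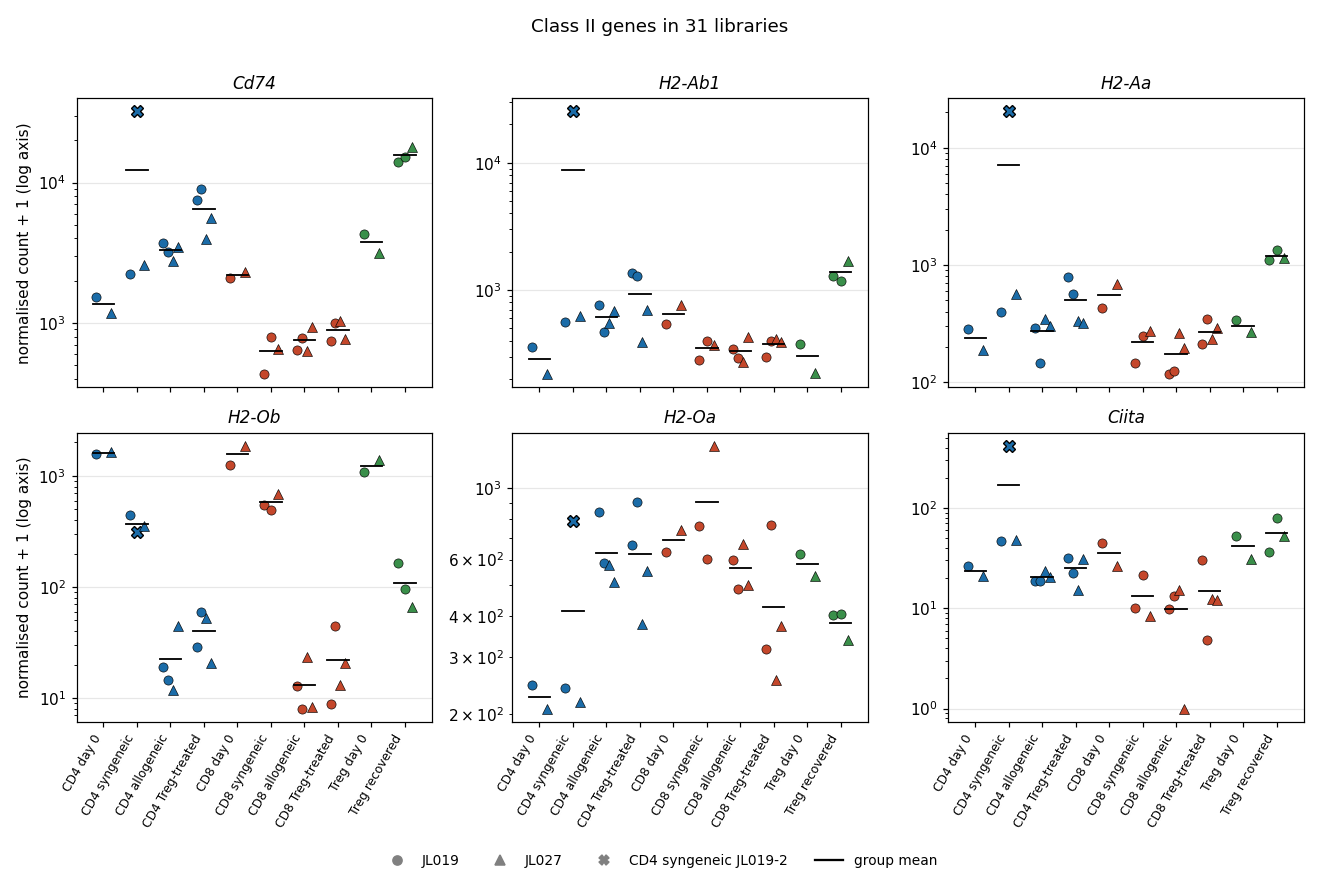
Normalised counts (plus 1, log axis) of 6 class II genes in the 31 libraries by group. Each point is a library, circles are JL019, triangles are JL027, X is the CD4 syngeneic library JL019-2, and bars are group means. H2-Ob drops to 7.054 to 43.6 in both allogeneic groups, and the X stands at 32095 for Cd74 and 25323 for H2-Ab1.

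Cd74, the class II chaperone, was highest in recovered Treg outside the library JL019-2. It held 4328 and 3152 normalised counts in day 0 Treg and 13944, 15279 and 17791 after recovery, a rise of 2.08 (SE 0.61, adjusted p = 0.0218). This call was lost without 4 of the 5 libraries in turn, and its adjusted p was 4.2e-06 with the CD4 library JL019-2 left out of the shared fit. In CD4 cells Cd74 held 1531 and 1183 at day 0, 2217, 32095 and 2582 in syngeneic, 3724, 3182, 2764 and 3446 in allogeneic, and 7457, 9057, 3969 and 5606 in Treg-treated recipients. The day 0, allogeneic and Treg-treated groups did not overlap, but neither step was called with all libraries (1.28, adjusted p = 0.12, and 0.93, adjusted p = 0.15). Without JL019-2 both were (adjusted p = 0.00061 and 0.0057).

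CD8 cells went the other way. Cd74 held 2073 and 2304 normalised counts at day 0, 429.4, 791.9 and 655.7 in syngeneic, 644.4, 782.3, 631.7 and 938.3 in allogeneic, and 745.4, 1001, 1023 and 773.3 in Treg-treated recipients. It fell against day 0 by 1.85 in syngeneic (SE 0.61, adjusted p = 0.0297) and by 1.56 in allogeneic recipients (SE 0.58, adjusted p = 0.0418), calls lost without 4 of 5 and 5 of 6 libraries in turn, while the adjusted p was 3.1e-05 and 4.8e-05 with JL019-2 left out. Cd74 lay below its level in CD4 cells by 2.14 in allogeneic (SE 0.47, adjusted p = 0.0047) and 2.83 in Treg-treated recipients (SE 0.47, adjusted p = 0.00016). Neither pair of groups overlapped and neither call was lost on leaving out a library.

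H2-Ab1 and H2-Aa encode the 2 chains of the class II molecule I-A. H2-Ab1 held 353.5 and 217 normalised counts in day 0 CD4 cells, 556.6, 25323 and 620.9 in syngeneic, 764.8, 467, 547.2 and 685.5 in allogeneic, and 1350, 1288, 387.1 and 695.2 in Treg-treated recipients. In CD8 cells it held 537.9 and 756.9 at day 0, 282.7, 396.1 and 368.1 in syngeneic, 346.1, 291.3, 272.3 and 425.7 in allogeneic, and 294.6, 398.9, 414.3 and 393 in Treg-treated recipients. Treg libraries held 377.8 and 222.5 at day 0 and 1282, 1185 and 1693 after recovery. The value of 25323 belongs to JL019-2. Without that library H2-Ab1 rose in recovered Treg by 2.24 (adjusted p = 9.2e-05) and in CD4 cells of allogeneic recipients against day 0 by 1.12 (adjusted p = 0.0201), and fell in CD8 cells of allogeneic recipients by 0.95 (adjusted p = 0.0413). With it the same changes had adjusted p of 0.0954, 0.38 and 0.40.

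H2-Aa held 283.4 and 186.4 normalised counts in day 0 CD4 cells, 395.7, 20416 and 560.4 in syngeneic, 290.2, 145.1, 341.7 and 302.3 in allogeneic, and 781.4, 567.4, 334.6 and 319.8 in Treg-treated recipients. CD8 cells held 424.3 and 685.6 at day 0, 144.7, 244.4 and 274.3 in syngeneic, 115.6, 122.8, 259.1 and 194.2 in allogeneic, and 209.9, 346, 233.3 and 288 in Treg-treated recipients. In Treg it held 335 and 266.5 at day 0 and 1101, 1336 and 1156 after recovery. Allogeneic against syngeneic CD4 cells, its change of -2.68 (SE 0.74, adjusted p = 0.0126) became -0.87 without JL019-2 (adjusted p = 0.18). The recovered Treg lay above day 0 by 1.99 (adjusted p = 0.15 with, and 0.00084 without, JL019-2).

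Ciita was low in most libraries. In CD4 cells it held 25.17 and 20.13 normalised counts at day 0, 45.54, 416.7 and 47.29 in syngeneic, 17.87, 17.6, 22.78 and 19.48 in allogeneic, and 30.65, 21.24, 14.23 and 30.18 in Treg-treated recipients. The CD8 libraries held 43.89 and 25.54 at day 0, 8.966, 20.41 and 7.326 in syngeneic, 8.763, 12.12, 14.23 and 0 in allogeneic, and 29.37, 3.845, 11.32 and 11.03 in Treg-treated recipients. In Treg it held 51.34 and 30.05 at day 0 and 35.55, 79.13 and 51.37 after recovery. Recovered Treg thus overlapped day 0 Treg for Ciita, whereas Cd74, H2-Ab1 and H2-Aa did not overlap. Ciita fell in CD8 cells of allogeneic recipients against day 0 by 2.38 (SE 0.86, adjusted p = 0.0371, lost without 3 of 6 libraries in turn), and in CD4 cells of allogeneic against syngeneic recipients by 2.27 (SE 0.76, adjusted p = 0.0427), which became -1.22 without JL019-2 (adjusted p = 0.40).

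H2-DMb1 and H2-DMb2 encode beta chains of H2-DM. H2-DMb1 held 30.4 and 31.05 normalised counts in day 0 Treg and 271.2, 257.8 and 256.6 in recovered Treg, a rise of 3.05 (SE 0.86, adjusted p = 0.016), lost without either day 0 library (adjusted p up to 0.11). H2-DMb2 held 118.4 and 95.2 in day 0 CD8 cells and 2.78, 4.071 and 32.95 in those of syngeneic recipients, where it fell by 3.63 (SE 0.76, adjusted p = 0.0013). In CD8 cells of allogeneic recipients it fell by 2.25 (SE 0.72, adjusted p = 0.0183), lost without either day 0 library (adjusted p up to 0.14). H2-DMa, the alpha chain, was lower in CD8 than in CD4 cells of Treg-treated recipients by 1.49 (SE 0.33, adjusted p = 0.0031).

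H2-Eb1, the I-E beta chain, was listed at 0 in all libraries of day 0 CD4 cells, day 0 Treg and CD4 cells of Treg-treated recipients. It held 9.977, 178 and 15.87 normalised counts in syngeneic and 10.51, 0, 10.88 and 8.388 in allogeneic CD4 cells. In CD8 cells it held 13.3 and 8.753 at day 0, 0, 5.017 and 0 in syngeneic, 0, 3.436, 0 and 5.997 in allogeneic, and 0, 13.3, 0 and 0 in Treg-treated recipients. Recovered Treg held 7.807, 30.48 and 19.81. No fold is given for it, and its call in 3 comparisons rests on values close to 0 or on groups listed at 0.

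The class II signal was set beside markers of cells that carry class II. JL019-2 held 5227 of summed dendritic cell markers against 344.5 and 313 in its group and 1789 of B cell markers against 351.6 and 389.9, and it was the highest of the 31 libraries for Cd74, H2-Ab1, H2-Aa, H2-DMb1, H2-DMb2, H2-Eb1 and Ciita. In recovered Treg, macrophage and monocyte markers summed to 2546 to 3950 against 3893 and 4608 at day 0, and B cell markers to 651.3 to 941.5 against 1379 and 1652. Within the macrophage and monocyte list, Itgam, Cd68 and Mpeg1 lay above day 0 in all recovered libraries, and Lyz2 and Csf1r below. Dendritic cell markers summed to 423.2 to 481.3 against 390.9 and 231.2. Of the 8, Zbtb46 alone was above day 0 in all recovered libraries, at 387.7, 288.5 and 292.6 against 172.6 and 79.98. Another 3 were below (Itgax at 4.4 to 10.14 against 21.8 and 30.32, Flt3 at 7.62 to 15.94 against 41.33 and 17.86, and Cd209a at 0 to 3.792 against 27.97 and 8.27). The part of these cells in the rise of H2-DMb1, Cd74 and H2-Eb1 in Treg was not tested. In CD8 cells, B cell markers summed to 2195 and 2986 at day 0, 3349 to 4151 in syngeneic and 1176 to 1304 in allogeneic recipients, whereas the defining B cell gene Cd79a held 247.1 and 316 at day 0, 5.865 to 16.37 in syngeneic and 6.001 to 16.04 in allogeneic recipients. The syngeneic sum was mostly Cd22 (1424 to 3083 against 260.6 and 258.1 at day 0) and Cd79b, while 8 of the 10 markers lay below day 0 in all syngeneic libraries. The part of B cells in the class II genes called lower in transplanted CD8 cells was not tested. In CD4 cells of allogeneic recipients, dendritic cell markers summed to 461.8 to 666.2 against 196.2 and 227.3 at day 0. Itgax (162.4 to 300.6 against 9.109 and 5.094) and Xcr1 (213.2 to 281.5 against 38.2 and 58.15) lay above day 0, while Flt3, Siglech and Cd209a lay below it in all 4 libraries (Cd209a at 2.952 to 6.224 against 32.31 and 46.89). Macrophage and monocyte markers summed to 2142 to 3153 against 1113 and 2034, with 6 of 12 above day 0 in all 4 libraries (Itgam, Cd68, C1qa, C1qb, C1qc and Cd14) and Csf1r below. Neutrophil markers summed to 6162 to 13225 against 391.6 and 518.2. The part of these cells in the level of Cd74 was not tested.

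**Figure D4:**
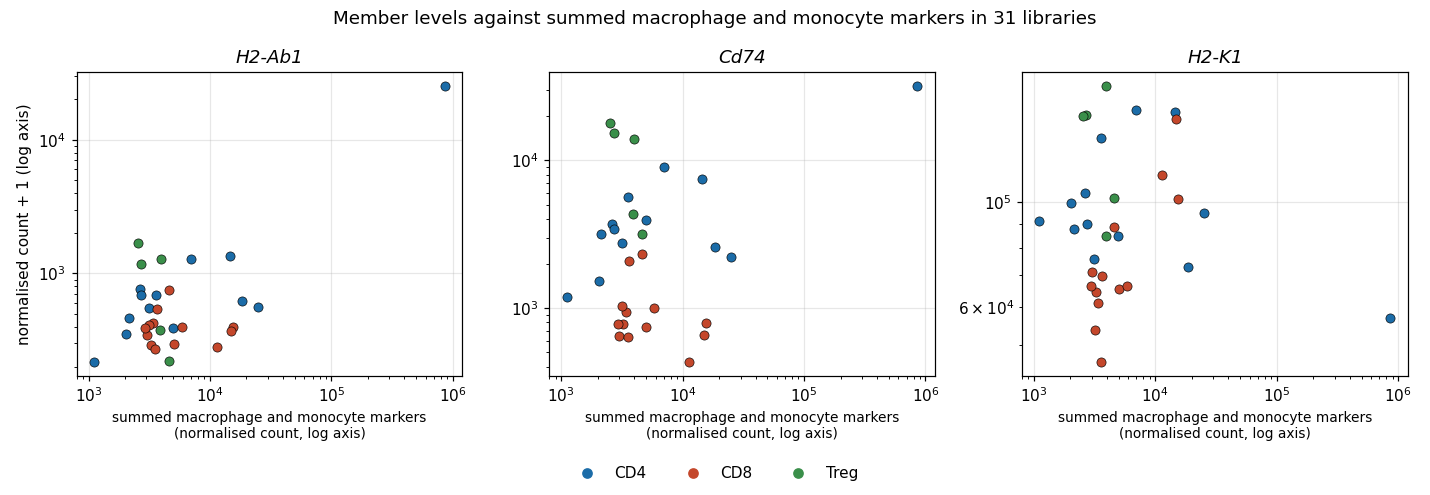
Normalised counts (plus 1) of H2-Ab1, Cd74 and H2-K1 against the sum of 12 macrophage and monocyte markers in the 31 libraries, both axes log, colours by cell type. The library JL019-2 is alone at a marker sum of 860129 and is the highest for H2-Ab1 and Cd74, and among the remaining libraries the recovered Treg, at sums of 2546 to 3950, hold the highest Cd74.

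Class II counts with Ciita depended on that library. CD4 cells of syngeneic recipients against day 0 gave 5 class II genes higher and 1 lower of 10, and 1 class I gene higher, with 13% of all genes called, but without JL019-2 there were 0 members called in either direction (limma) against 7.93% of all genes. Allogeneic against syngeneic CD4 cells gave 0 higher and 3 lower with 14.6% of all genes called, and 1 higher (H2-Oa) and 1 lower (H2-Ob) without JL019-2, with 10.9%. CD4 cells of allogeneic recipients against day 0 gave 1 class II gene higher and 1 lower, beside 5 class I genes higher and 1 lower, with 24% of all genes called. CD8 cells of allogeneic recipients against day 0 gave 0 class II genes higher and 4 lower (H2-Ob, H2-DMb2, Ciita and Cd74) and 5 class I genes higher and 1 lower, with 30.4% of all genes called. CD8 cells of syngeneic recipients against day 0 gave 0 and 2 for class II, and 5 and 0 for class I, with 24.2% of all genes called. In this last comparison neutrophil markers summed to 44171 to 76415 against 2131 and 2534 at day 0, macrophage and monocyte markers to 11352 to 15522 against 3643 and 4608, and erythroid markers to 3484 to 12051 against 45850 and 55313. In CD8 cells of allogeneic recipients the erythroid sums were 631.1 to 15288 and the neutrophil sums 6273 to 11379. Their part in the counts was not tested. Over all 37 members, some of these splits moved with the scaling. In CD4 cells allogeneic against day 0 gave 6 higher and 3 lower, and 3 and 3 under quantile normalisation. In CD8 cells it gave 5 and 6, and 6 and 2 under median centring, while syngeneic against day 0 gave 5 and 2, and 9 and 2 under median centring.

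Recovered Treg against day 0 Treg had 12 members higher and 2 lower, 37.8% of the 37, while 13.3% of all genes were called. Without the CD4 syngeneic library JL019-2 in the shared fit it was 15 higher and 2 lower against 16.3% of all genes. The higher members were 9 class I genes, led by H2-T22 (5112 and 5315 normalised counts to 14315, 15142 and 12801, a rise of 1.43, SE 0.24, adjusted p = 8.3e-05), and the class II genes H2-DMb1, Cd74 and H2-Eb1. The lower ones were H2-Ob and H2-Q2. Erythroid markers summed to 196.7 and 547 at day 0 and 1803 to 50932 after recovery, with 7 of 8 higher in all recovered libraries, and neutrophil markers to 353.2 and 701.1 and then 923.7 to 6527, with 2 of 6 higher (S100a8 and Mpo). Their part in these changes was not tested. Under quantile normalisation 6 members were higher and 2 lower. The median of the 37 was 0.72 and that of all genes -0.07. Only the 3 calls for H2-Ob, H2-T22 and Pdia3 held without each of the 5 libraries in turn.

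Recovered Treg against CD4 cells of Treg-treated recipients had 11 members higher and 3 lower, with 30% of all genes called, and 14 higher and 3 lower without JL019-2, with 35%. The split was 6 and 3 under median centring and 13 and 1 with the span trend removed. The lower members were H2-Q10, H2-Ke6 and H2-Q2. All 6 neutrophil markers were lower in every recovered Treg library (sums of 923.7 to 6527 against 27642 to 103200), and so was Lyz2, and their part in these calls was not tested. At day 0, limma called 0 of 37 members between Treg and CD4 cells, with 4 at an unadjusted p below 0.05 and 3.89% of all genes called. Without JL019-2, Cd74 (1.46, adjusted p = 0.0032) and H2-Oa (1.36, adjusted p = 0.0421) were higher in Treg, against 5.9% of all genes. In the same Treg libraries macrophage and monocyte markers summed to 3893 and 4608 against 2034 and 1113 in CD4 cells, with 9 of 12 higher in both, and B cell markers to 1652 and 1379 against 905.2 and 730.5, with Cd79b, Cd22 and Bank1 higher and Cd79a lower. Of 8 dendritic cell markers, Zbtb46, Itgax and Xcr1 were higher and Cd209a lower. Their part in the 2 differences was not tested.

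CD8 against CD4 cells gave 1 member called at day 0 (H2-Q2, lower), where 3.32% of all genes were called, and 1 in allogeneic recipients (Cd74, lower), where 6.15% were. With the replicate number as a block H2-K1 was also lower (-0.56, adjusted p = 0.0265), and with the recipient as a random block H2-K1 (adjusted p = 0.042) and H2-Q2 (adjusted p = 0.0462) were lower and Tapbpl was higher (0.49, adjusted p = 0.0462). Under quantile normalisation 0 members were higher and 4 lower, and under median centring 1 was higher and 1 lower. At day 0, 1 was higher and 1 lower with the span trend removed. In Treg-treated recipients 1 member was higher (Canx, at 1.07) and 6 were lower (Cd74, H2-K1, H2-T23, H2-DMa, H2-Q2 and B2m), with 9.61% of all genes called. The calls of Canx and B2m were each lost without 6 of 8 libraries in turn. Without the CD4 syngeneic library JL019-2 in the shared fit it was 2 higher and 10 lower against 12.5%, and under quantile normalisation 0 higher and 10 lower.

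H2-Ke6, the enzyme gene, fell in CD8 cells of allogeneic against syngeneic recipients, from 3010, 2022 and 4346 normalised counts to 824.4, 819.9, 718.1 and 917.4, by 1.87 (SE 0.32, adjusted p = 8.2e-05). In allogeneic recipients it was also below day 0 by 1.13 in both CD4 (adjusted p = 0.0238) and CD8 cells (adjusted p = 0.0199), lost without 3 and 2 of 6 libraries in turn, the day 0 libraries among them.

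**Figure D5:**
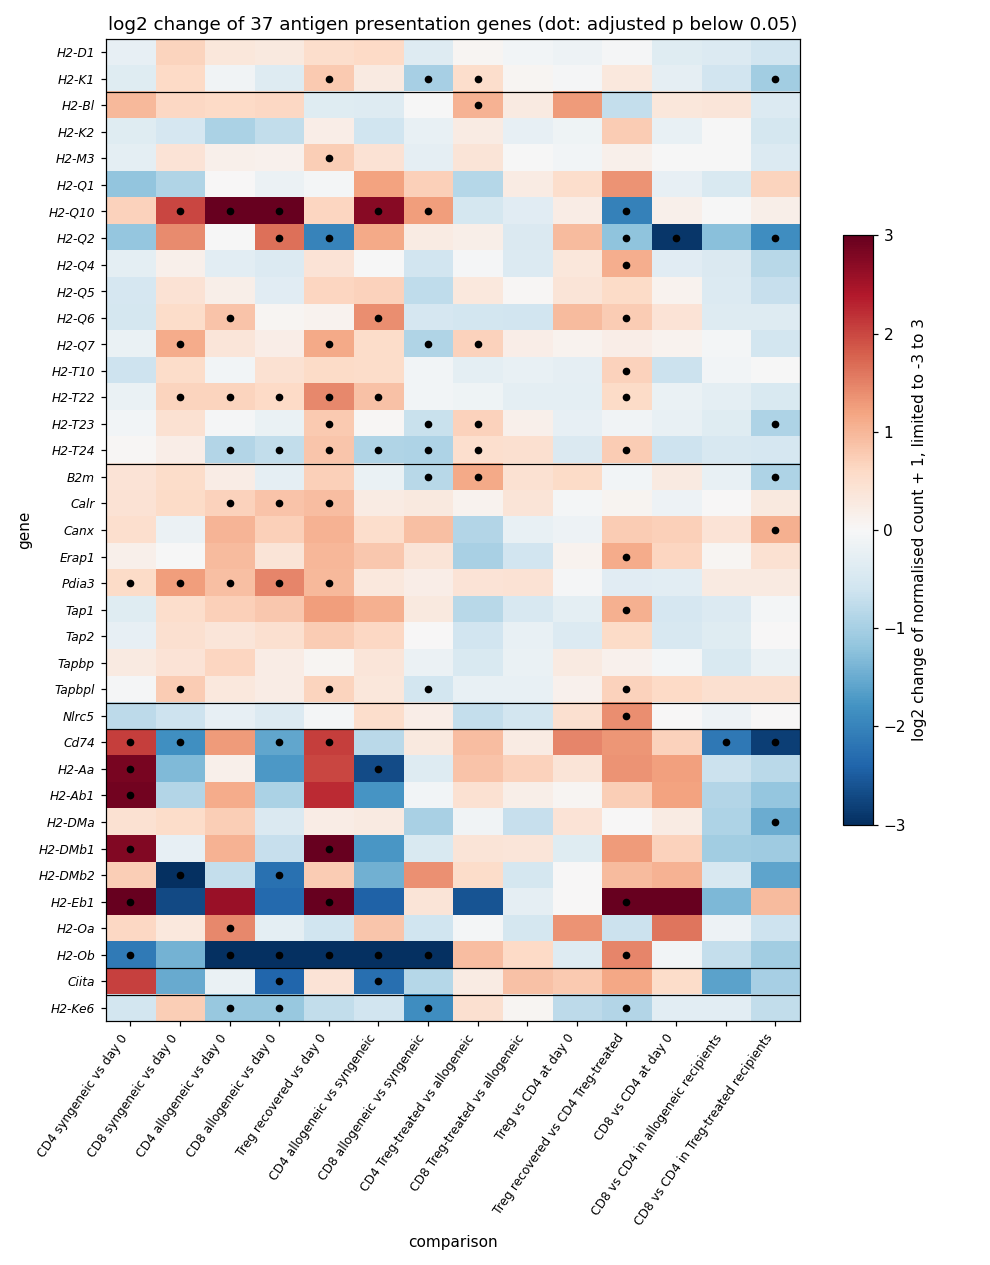
log2 change of the 37 genes (vertical axis, ordered by role) in 14 comparisons (horizontal axis), red higher and blue lower in the first-named group, colours limited to -3 to 3, with a dot where the adjusted p is below 0.05. H2-Ob is dark blue and H2-Q10 red in the allogeneic columns, and the column of CD8 Treg-treated against allogeneic cells has 0 dots.

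Genes around the pathway were described from 4 lists. Of 10 interferon-gamma regulators, allogeneic against syngeneic recipients gave 3 higher and 1 lower in CD4 cells and 2 higher and 5 lower in CD8 cells, where 14.6% and 21.1% of all genes were called. Without JL019-2 the CD4 counts were 2 and 2. Ifng itself rose in both, by 2.40 and 1.67, as did the receptor chain Ifngr1 (2.46 and 1.65), while the other chain Ifngr2 fell (-4.85 and -2.78). The inhibitor Socs1 (-2.35) and the transcription factor Irf1 (-0.87) fell in CD8 cells. Each of these named changes had an adjusted p of at most 0.0025 (Irf1).

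The immunoproteasome, which cuts peptides for class I, had 0 of 5 called in CD4 cells and 3 lower in CD8 cells for allogeneic against syngeneic recipients (Psme1 -0.95, Psme2 -0.88 and Psmb10 -0.81), beside the same shares of all genes. In CD8 cells all 5 were higher in syngeneic recipients than at day 0, with a median of 1.38 and 24.2% of all genes called. The slopes on gene span were -0.058, -0.008 and -0.105 in these syngeneic libraries and 0.058 and 0.012 at day 0. In CD4 cells, 4 of 5 were higher in Treg-treated than in allogeneic recipients (Psme2 1.00, Psmb10 0.92, Psme1 0.85 and Psmb9 0.83), with 22.2% of all genes called. The slopes and the markers of other cells given above for these CD4 libraries differed as well. The part of slopes and other cells in these immunoproteasome changes was not tested. Of 7 class II promoter factors, 0 were called for allogeneic against syngeneic recipients in either cell type, and in CD4 cells Treg treatment gave 2 higher (Nfya and Rfxank) and 1 lower (Rfx5, -1.31), against the same 22.2%. Of 5 class II processing genes, allogeneic against syngeneic recipients gave 1 higher and 3 lower in CD4 cells and 2 higher and 1 lower in CD8 cells, against 14.6% and 21.1% of all genes. In CD4 cells the protease Ctsb rose (0.55), and the ubiquitin ligase Marchf1 (-3.68), the protease Lgmn (-1.27) and the invariant chain protease Ctss (-1.09) fell, the last not called without JL019-2 (-0.68, adjusted p = 0.0783). In CD8 cells Ctsb (0.70) and Lgmn (0.89) rose and Ctss fell (-1.45). Lgmn was higher in recovered than in day 0 Treg by 2.33 (SE 0.34, adjusted p = 1.5e-05).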

How the data were processed

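Bulk RNA of 31 libraries was analysed in the 10 groups of the sample labels. The authors deposited a signal per gene, counts normalised between libraries, for 16741 genes. Full-length cDNA was made with SMARTer v4 and libraries with Nextera XT, per the labels' protocols. FastQC 0.11.7, kallisto, DESeq2 and the builds GRCm38 and mm10 are named in the submitters' processing notes. kallisto estimates divide reads among similar transcripts, which matters for the H2 genes. Depth is unknown. The T-cell receptor tables were not used here.

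The plan foresaw a count model had the values been whole. They were normalised, so limma 3.58.1 (R 4.3.3, trend and robust options) was fitted to log2(value + 1) of all genes with 1 mean per group, and 16 contrasts were adjusted by Benjamini-Hochberg at 0.05 over all genes. The filter, a mean of at least 1, removed 0 genes. The pseudocount understates changes of low genes. The script was tested on simulated data. Genes were named by role, and per comparison up to 4 called members per direction with the lowest adjusted p, with others given by counts; further members, such as those that did not follow a relative, were added after their values were seen. Members and lists were chosen with earlier results of these data known. Some values of the pathway lists are not reported here.

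Promoters and gene positions are those of RefSeq (GRCm38.p6). Python 3.11.15, numpy 2.4.6, pandas 2.3.3 and matplotlib 3.10.9 were used. Alternatives were pseudocounts of 0.1 and 10, a mean filter of 10 and none, median centring, quantile normalisation, a replicate block, the prefix as a factor, the recipient as a random block, only the groups compared, removal of the trend with genomic span, 1 prefix alone, and each library left out. Leaving the CD4 syngeneic library JL019-2 out of all comparisons was added after the data were seen. Deviations from the group means of same-numbered CD4 and CD8 libraries correlated at 0.135 to 0.416 in allogeneic recipients. Libraries with different numbers were not compared in this way. These values therefore cannot show that same-numbered libraries share a recipient, and the labels do not state it. In Treg-treated recipients the range was -0.107 to 0.428. The random block for the recipient nonetheless took same-numbered libraries of a treatment, and day 0 libraries of a prefix, to share a recipient across cell types. Results with that block rest on this assumption.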

Additional observations from a re-analysis of the deposited data

Results flagged for a closer look

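A library stood apart from the others of its group, by Dixon's 95% limit, in 7 of 40 gene and group pairs tested. Chance gives about 1 in 20. In CD8 cells of allogeneic recipients the JL027-1 library was lowest for H2-D1 (80108), Tap1 (5347) and Nlrc5 (1088). In CD8 cells of Treg-treated recipients H2-K1 was lowest in JL027-1 (53657), and JL019-2 was highest for B2m (277190) and H2-Eb1 (13.3, with the other 3 at 0). In CD4 cells of Treg-treated recipients Tap1 was highest in JL027-1 (10386).

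The change from syngeneic to allogeneic recipients differed between CD8 and CD4 cells, by the limma test of the difference, for 7 genes. The values, CD8 minus CD4 on the log2 scale, were -1.89 for H2-Q6, -1.275 for H2-K1, -1.49 for H2-Q10, -1.46 for H2-Q7, -1.44 for H2-Q5, -0.89 for Tapbpl and -0.95 for H2-T22. Without the CD4 syngeneic library JL019-2, H2-Q5, Tapbpl and H2-T22 were not called (adjusted p = 0.10, 0.15 and 0.18), and H2-Oa was called (-2.04, adjusted p = 0.0081).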

How the results depend on the processing

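For the 76 single-gene calls, 1498 alternative values were computed: 0 changed direction, 1173 kept the call and 325 lost it. The prefix as a factor, the recipient as a random block and both mean filters lost none. Leaving libraries out, or using 1 prefix, also lowers the number of libraries, and a group left with 1 library is assumed to vary like the others. Unknown depth limits low genes such as H2-Eb1, H2-Q1 and Ciita.

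Counts of called members moved by more than 1.5 times as follows, and the causes were not tested. Counts without JL019-2 leave out the CD4 syngeneic library of that name. For CD4 allogeneic against syngeneic (7) they were 4 with only the groups compared, 2 in JL019, 1 in JL027 and 6 to 14 on leaving out a library (14 without syngeneic JL019-1). For the same in CD8 cells (9) they were 5 with the replicate block, 4 in JL019, 5 in JL027 and 6 to 11 leaving one out. For CD4 Treg-treated against allogeneic (6) they were 0 in either prefix and 1 to 14. For CD4 syngeneic against day 0 (7) they were 0 with the replicate block, 1 with only the groups compared, 0 in either prefix and 0 to 7. For CD8 syngeneic against day 0 (7) they were 11 median-centred, 4 with the block, 3 in JL019, 1 in JL027 and 3 to 10. For CD4 allogeneic against day 0 (9) they were 4 with the block, 18 with only the groups compared, 2 in either prefix and 3 to 11. For CD8 allogeneic against day 0 (11) they were 4 with the block, 3 in JL019, 7 in JL027 and 4 to 13. For recovered against day 0 Treg (14) they were 8 with quantiles, 6 with the block, 23 with only the groups compared, 1 in JL019, 4 in JL027 and 4 to 17. For Treg against CD4 at day 0 (0) they were 1 with the span trend removed, 5 with only the groups compared, 2 without JL019-2 and 0 to 2. For recovered Treg against Treg-treated CD4 (14) they were 9 median-centred, 4 in JL019, 2 in JL027 and 7 to 17. For CD8 against CD4 at day 0 (1) they were 2 with the recipient block, 2 with the span trend removed, 7 with only the groups compared, 0 in JL019, 2 without JL019-2 and 0 to 2. In allogeneic recipients (1) they were 2 median-centred, 4 with quantiles, 2 with the replicate block, 4 with the recipient block, 2 with the span trend removed, 5 with only the groups compared, 0 in JL019, 2 without JL019-2 and 1 to 2. In Treg-treated recipients (7) they were 4 with only the groups compared, 1 in either prefix, 12 without JL019-2 and 5 to 12. For the difference of the allogeneic effects (7) they were 4 with the span trend removed, 4 with only the groups compared, 0 in either prefix and 4 to 10. The labels do not state that replicate numbers pair libraries. Only later libraries labelled JL027 without a number share a replicate label with day 0. The block therefore largely overlaps with the comparisons against day 0. A call lost under the replicate block cannot be read as a weaker effect, nor as an unchanged one.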
